A study of Mus musculus with 27 samples.

Results

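The entries of miR-9, a microRNA of the developing brain, were followed in the small RNA of mouse cells. Members were the lines of the deposited table, called entries here, whose last name field was mmu-miR-9 with any copy or arm suffix. There were 6 of them among 1013 entries, 483 of which were miRNA entries. The name mmu-miR-9-5p, the arm cut from the 5′ side of the hairpin, occurred 3 times, the name mmu-miR-9-3p occurred 3 times, and 0 entries were hairpins. Small RNA from 3 kinds of cells was read in 3 fractions, chromatin, nucleoplasm and cytoplasm. mCtx were cortical neurons in primary culture for 5 days, with E15D5 in their sample tag. mNPC was a line of neural progenitors made in the submitters' own laboratory and fed with EGF and FGF at 10 ng/ml. mESC was the E14 embryonic stem cell line, grown on gelatin with LIF. Each of the 9 combinations had 3 libraries, 27 in all, and no genetic change or drug was stated for any of them. mNPC and mESC were each 1 line, and a culture of primary cortical cells can hold cells other than neurons.

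A miRNA is cut from a hairpin transcript, and 1 arm of the hairpin is usually kept in Argonaute, the protein with which it pairs to mRNAs and silences them. The arm chooses its targets mainly by its seed, bases 2 to 8 from the 5′ end. miR-9 is abundant in neural progenitors and neurons of vertebrates and is known from both arms. Among known targets of the 5p arm are the mRNAs of REST, a repressor of neuronal genes, of Nr2e1 (Tlx), a nuclear receptor of neural stem cells, and of Hes1, a Notch effector. The 3p arm is known to target Rcor1 (CoREST), a partner of REST.

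The sequences of both arms show why the 5p and 3p entries were described apart, since their seeds, in capitals, differ (RefSeq, GRCm38.p6).
mmu-miR-9-5p: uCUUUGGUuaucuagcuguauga
mmu-miR-9-3p: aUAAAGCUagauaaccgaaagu
The arms have 23 and 22 bases. Of the 1679 mature names in the RefSeq table, 0 others shared the seed of the 5p arm and 0 others that of the 3p arm.

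The mouse genome holds 3 miR-9 genes, and their hairpins show why same-named entries cannot be told apart by reads of a mature arm. The capitals mark both arms, which are identical in the 3 hairpins, and the lower-case loop and flanks differ.
Mir9-1: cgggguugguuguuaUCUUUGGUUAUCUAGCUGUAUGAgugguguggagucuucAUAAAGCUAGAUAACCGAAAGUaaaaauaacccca
Mir9-2: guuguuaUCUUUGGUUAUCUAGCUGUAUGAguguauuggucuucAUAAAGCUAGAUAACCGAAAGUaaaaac
Mir9-3: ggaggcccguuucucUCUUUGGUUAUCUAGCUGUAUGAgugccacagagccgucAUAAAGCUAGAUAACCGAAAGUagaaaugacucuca
The loop between the arms has 16 bases in Mir9-1, 14 in Mir9-2 and 16 in Mir9-3. All lie on the plus strand of GRCm38. Mir9-1 is at chr3:88215598-88215686, in an intron of the lincRNA gene Gm3764, and the annotation places another miRNA gene, Gm25641, over it on the opposite strand. Mir9-2 is at chr13:83738814-83738885, within an exon of the lincRNA gene C130071C03Rik. Mir9-3 is at chr7:79505264-79505353, in an intron of the lincRNA gene Mir9-3hg. The 6 entries coincided with the annotated arms of these hairpins once the starts in the table were counted from 1.

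Values were given in RPM, a read count scaled to the size of its library, so each value is a share of its library and gives no amount per cell. In these bulk samples, fewer cells that hold a miRNA and less of it in each cell cannot be told apart. Listed values added up to 73.9% to 97.4% of the full RPM total, and miRNA made up between 24.7% and 96.2% of the listed RPM, least in mESC chromatin. Each library had a lowest listed value, between 5.16 and 59.07 RPM over the 27 libraries, and anything smaller stood as 0, so that a 0 does not show absence. Numbers of reads per library were not used here. 1 library, cytoplasm replicate 1 of mCtx, stood apart: across all entries its log2(RPM + 1) values had a Pearson's r of 0.864 and 0.865 with replicates 2 and 3, against 0.969 between those, and it listed 383 entries, against 506 and 486 in the others. Where a miR-9 result moved by over 1.5 times, or a call or an order changed, the value without it is given beside the value with it. Correlations with miR-9, and fits after centring or scaling to miRNA, were run only with that library included.

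The 5p entries of the 3 genes carried the same level. In the 18 neural libraries, those of mCtx and mNPC, the highest of the 3 exceeded the lowest by between 0.0556% and 0.838%, and the entry of Mir9-1 was the highest in 18 of 18. In mESC they were equal in 5 of the 7 libraries that listed them. The 3p entries varied more. In the mCtx library of chromatin replicate 3, the Mir9-2 entry was listed at 0, while those of Mir9-1 and Mir9-3 were at 426.8 and 431.8 RPM. In replicate 2 of the same group the Mir9-2 entry was at 361.0 RPM, against 503.9 for Mir9-1 and 493.5 for Mir9-3. In mNPC nucleoplasm the Mir9-3 entry stood 12.6%, 8.76% and 12.6% above that of Mir9-1. How reads that fit several genes were assigned is not given in the sources used here, and reads of identical arms cannot show which gene was transcribed. The 3 entries of an arm are therefore 1 measurement, given below by the Mir9-1 entry, and a sum over them may count a read up to 3 times.

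**Figure D1:**
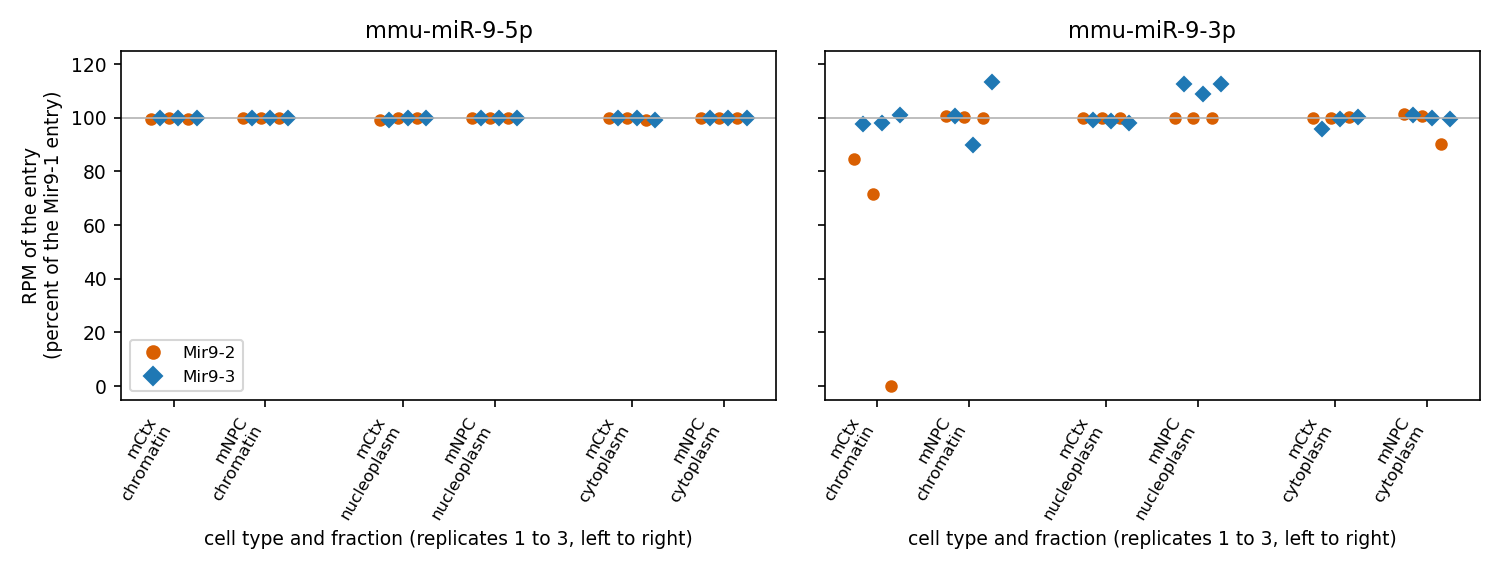
RPM of the Mir9-2 (circles) and Mir9-3 (diamonds) entries of each arm in percent of the Mir9-1 entry, in each of the 18 neural libraries, with mCtx left of mNPC within each fraction. The 5p entries (left panel) lie at 100 throughout, and the 3p entry of Mir9-2 falls to 0 in 1 mCtx chromatin library.

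The 5p arm was among the most abundant miRNAs of both neural cells. In mESC it stood in the middle of the listed miRNAs in nucleoplasm and cytoplasm, and near or under the lowest listed values in chromatin. In mCtx it reached 14565, 21924 and 20235 RPM in chromatin, 19671, 24118 and 21551 RPM in nucleoplasm, and 46449, 23226 and 21629 RPM in cytoplasm. In mNPC it reached 21588, 16165 and 11260 RPM in chromatin, 28896, 30903 and 25468 RPM in nucleoplasm, and 35803, 35600 and 31380 RPM in cytoplasm. In mESC it was at 54.24, 0 and 0 RPM in chromatin, 178.3, 242.4 and 181.6 RPM in nucleoplasm, and 183.7, 212.2 and 250.6 RPM in cytoplasm. Each of the 18 neural libraries thus lay above each of the 9 mESC libraries.

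The neural levels exceeded those of mESC in every fraction. Cytoplasm averaged 30434 ± 13892 RPM in mCtx and 34261 ± 2497 RPM in mNPC, against 215 ± 33.6 RPM in mESC (SD, n = 3 each), so the means were 141 and 159 times that of mESC. Without cytoplasm replicate 1 of mCtx, its mean was 104 times that of mESC. Nucleoplasm averaged 21780 ± 2232 RPM in mCtx and 28423 ± 2748 RPM in mNPC, against 201 ± 36.1 RPM in mESC, or 108 and 142 times that of mESC. On the log2(RPM + 1) scale, the difference from mESC in cytoplasm was 7.06 in mCtx and 7.32 in mNPC (SE 0.91), with limma adjusted p of 1.65e-06 and 9.63e-07. In nucleoplasm it was 6.76 in mCtx and 7.15 in mNPC, with limma adjusted p of 2.79e-06 and 1.31e-06. In chromatin the arm passed as well, with limma adjusted p of 3.46e-10 in mCtx and 4.69e-10 in mNPC, but 2 of 3 mESC libraries stood at 0 and no fold is stated. All 6 miR-9 entries were called higher in each of these 6 comparisons, the 3p entries against mESC libraries that all stood at 0. Of all 851 entries tested, the share called higher than in mESC was 22.8% in chromatin, 20.9% in nucleoplasm and 21.0% in cytoplasm of mCtx, and 15.9%, 12.8% and 14.1% in the same fractions of mNPC. The calls of both Mir9-1 entries held when any 1 of the 27 libraries was left out.

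The 3p arm was listed in 18 of 18 neural libraries and in 0 of 9 mESC libraries. In mCtx it reached 642.8, 503.9 and 426.8 RPM in chromatin, 735.3, 697.0 and 362.2 RPM in nucleoplasm, and 117.4, 485.3 and 408.4 RPM in cytoplasm. In mNPC it reached 973.8, 600.5 and 342.6 RPM in chromatin, 854.9, 1075 and 772.0 RPM in nucleoplasm, and 858.1, 1178 and 1080 RPM in cytoplasm. All 6 contrasts with mESC passed, with limma adjusted p between 1.54e-14 and 6.98e-13, and no fold is stated. The 3p entries met the filter of the fit through the neural libraries alone and had no spread in mESC. These calls therefore show only listed against not listed. The 0 in mESC has to be read against the lowest listed values. With the median 5p to 3p ratio of mNPC, 30.2, the 5p levels of the 7 mESC libraries that listed it would go with 3p levels of 1.79 to 8.29 RPM, under the lowest listed value of the library in 7 of 7 (15.7 to 47.9 RPM). A 3p arm in the same proportion as in mNPC would therefore not have been listed.

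**Figure D2:**
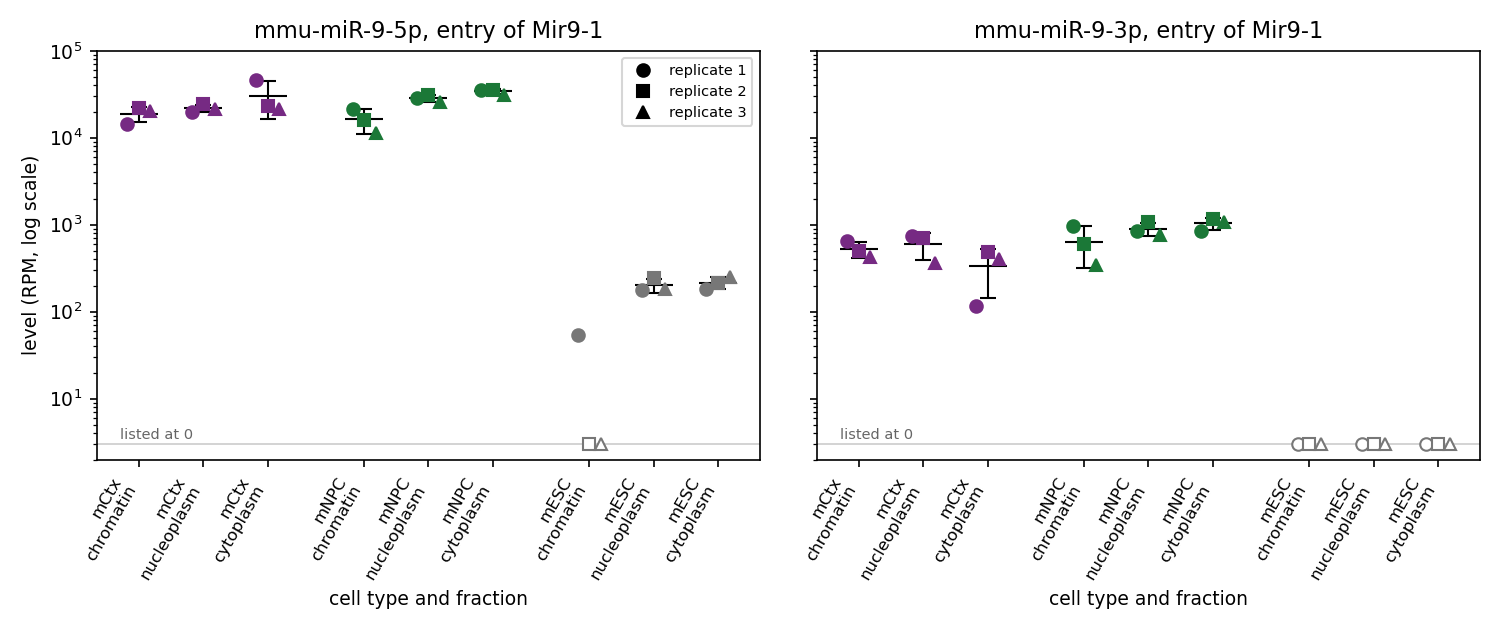
Level of each arm (RPM, log scale) in each of the 27 libraries, by cell type and fraction, from the Mir9-1 entry. Symbols mark replicates, bars the mean ± SD of groups without a 0, and open symbols on the lowest line values listed at 0. The 5p arm lies between 11260 and 46449 RPM in mCtx and mNPC and at no more than 250.6 RPM in mESC.

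Since a sample with more snoRNA has less room for miRNA in its RPM, miR-9 was also set against the listed miRNA alone. This sum may count a read up to 3 times, and same-named entries of other miRNAs were summed likewise, so the values may exceed shares of reads. The 6 entries summed to 9.37% ± 1.51 of it in chromatin, 7.41% ± 0.748 in nucleoplasm and 10.7% ± 4.68 in cytoplasm of mCtx. In mNPC they summed to 9.16% ± 1.62, 9.78% ± 1.01 and 11.7% ± 0.765 in the same order of fractions. In mESC they summed to 0.0713%, 0% and 0% in the chromatin libraries, 0.0874% ± 0.0189 in nucleoplasm and 0.0913% ± 0.0104 in cytoplasm (SD, n = 3 each). Averaged over the fractions, the share was higher than in mESC by 9.09 percentage points in mCtx and by 10.1 in mNPC, in 3 of 3 fractions each, with an exact two-sided permutation adjusted p of 0.00163 for both (unadjusted p = 0.00025, the smallest that 8000 assignments allow; 13 tests adjusted together). Among miRNA names, the 5p arm ranked between 2 and 10 from the top in the mCtx libraries and between 7 and 11 in those of mNPC, against 121 to 144 in nucleoplasm and cytoplasm of mESC, where 213 to 287 names were listed, and 148 of 154 in the mESC chromatin library that listed it. Without cytoplasm replicate 1 the lowest rank number in mCtx was 3. The 3p arm ranked between 63 and 123 in mCtx (63 and 88 without that library) and between 52 and 64 in mNPC.

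**Figure D3:**
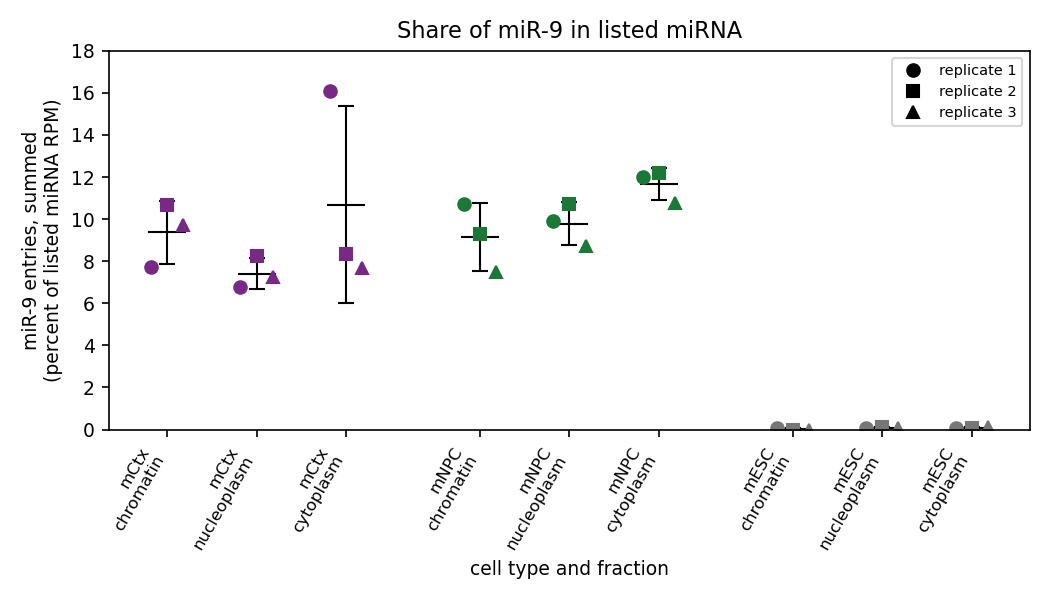
Summed miR-9 entries in percent of the listed miRNA RPM in each of the 27 libraries, by cell type and fraction, with the mean ± SD of each group (n = 3). The sum may count a read up to 3 times. mCtx and mNPC libraries lie between 6.77% and 16.1%, and mESC libraries at no more than 0.109%. The highest point is cytoplasm replicate 1 of mCtx.

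Between the neural cells, the arms differed in what the data could show. The 5p arm passed in 0 of 3 fractions. On the log2(RPM + 1) scale, mCtx differed from mNPC by 0.24 in chromatin, -0.38 in nucleoplasm (0.024 after centring) and -0.26 in cytoplasm (SE 0.91, limma adjusted p = 1 each). Centring set each library against the median of the 106 entries above 0 in all libraries. Of all entries, 27.8%, 33.8% and 32.3% passed in either direction. In cytoplasm, without replicate 1 of mCtx, the 5p difference was -0.61. It did not pass in the fit of all groups (limma adjusted p = 1) and passed in that of the neural libraries (adjusted p = 0.0495, with 14.7% of entries called lower). The 95% intervals with all libraries were wide, from -1.67 to 2.15, -2.29 to 1.52 and -2.17 to 1.65. In nucleoplasm the groups did not overlap: all 6 miR-9 entries were lower in each mCtx library than in each mNPC library, which held for 18.9% of the 851 entries. There the 5p arm passed in a fit of those 2 groups alone (limma adjusted p = 0.0336, with 27.6% of entries called lower) and did not in the fit of the neural libraries (adjusted p = 0.309). Averaged over fractions, the miR-9 share of miRNA differed by -1.05 percentage points in mCtx (exact permutation adjusted p = 0.463), and it was higher in mCtx in 1 of 3 fractions. Without that library the difference was -1.94 points (adjusted p = 0.0823).

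The 3p arm fell in cytoplasm of mCtx. It averaged 337 ± 194 RPM in mCtx and 1039 ± 164 RPM in mNPC (SD, n = 3 each), a log2(RPM + 1) difference of -1.85 (SE 0.43, limma adjusted p = 0.00185). The mESC groups, all at 0, enter that SE without spread and lower it. Over the alternatives the limma adjusted p went up to 0.0429. The groups did not overlap for the 3 entries of the 3p arm, which were lower, nor for 16.8% of all entries in that direction. The Mir9-3 entry gave -1.87 (adjusted p = 0.0015) and the Mir9-2 entry -1.81, which did not pass (SE 1.40, adjusted p = 0.441); this is the entry with a 0 in mCtx chromatin. Lower calls were made for 2 of the 6 miR-9 entries and for 10.8% of all entries tested. Cytoplasm replicate 1 of mCtx held the lowest 3p value and the highest 5p value of its group. Without it the 3p arm averaged 447 RPM in the other 2 mCtx libraries, the difference was -1.21 and it still passed (limma adjusted p = 0.0101, with 9.91% of entries called lower), while the 5p arm averaged 22427 RPM and the miR-9 share 7.99%. In nucleoplasm the 3p difference was -0.64 (adjusted p = 0.33), and in chromatin -0.18 (adjusted p = 1).

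In order of the mean, the 5p arm ran from mNPC cytoplasm through mCtx cytoplasm, mNPC nucleoplasm, mCtx nucleoplasm and mCtx chromatin to mNPC chromatin, then mESC cytoplasm, nucleoplasm and chromatin. Neighbours in this order overlapped except at 3 steps, which were mNPC nucleoplasm to mCtx nucleoplasm, mNPC chromatin to mESC cytoplasm, and mESC nucleoplasm to mESC chromatin. The second place rested on cytoplasm replicate 1 of mCtx. Without it mCtx cytoplasm, at 22427 RPM, came after mNPC nucleoplasm and just before mCtx nucleoplasm. It then overlapped mCtx nucleoplasm, mNPC cytoplasm became the neighbour of mNPC nucleoplasm, and neither of these mNPC groups overlapped the next one down. For the 3p arm the order was cytoplasm, nucleoplasm and chromatin of mNPC, then nucleoplasm, chromatin and cytoplasm of mCtx, and these neighbours all overlapped.

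The 5p arm made up most of miR-9 wherever both arms were listed. Over all copies it held 96.0% to 99.8% of the miR-9 RPM in mCtx libraries and 95.7% to 97.6% in mNPC libraries. The ratio of 5p to 3p RPM had a median of 48.4 in mCtx, with a range of 24.0 to 401, and of 30.2 in mNPC, with a range of 22.1 to 41.3. Averaged over fractions, the 5p percentage was higher in mCtx by 1.06 points, in 3 of 3 fractions (exact permutation p = 0.019). It did not pass after adjustment over 13 tests (exact permutation adjusted p = 0.0618). These 13 include the tests between fractions within a cell type, which could not pass and so raised this adjusted value. The sum over copies takes in the Mir9-2 3p entry, listed at 0 in chromatin replicate 3 of mCtx. The ratio there was 70.6, against 47.4 from the Mir9-1 entries. From the Mir9-1 entries alone, the 5p percentage averaged 97.7% over the mCtx libraries and 96.8% over those of mNPC. The value of 401 was that of cytoplasm replicate 1 of mCtx, and the other 2 libraries of the group had 47.9 and 52.6. Without replicate 1 the difference of the 5p percentage was 0.871 points (adjusted p = 0.0832). Both arms of 5 miRNAs were listed in all 18 neural libraries. In replicate 1 of mCtx cytoplasm, log2(5p/3p) deviated from the mean of replicates 2 and 3 by 2.98 for miR-9, the highest of the 5, which ranged from -2.19 to 2.98. No test of arm balance between fractions within a cell type could pass, since 3 libraries against 3 allow no exact p under 0.1.

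**Figure D4:**
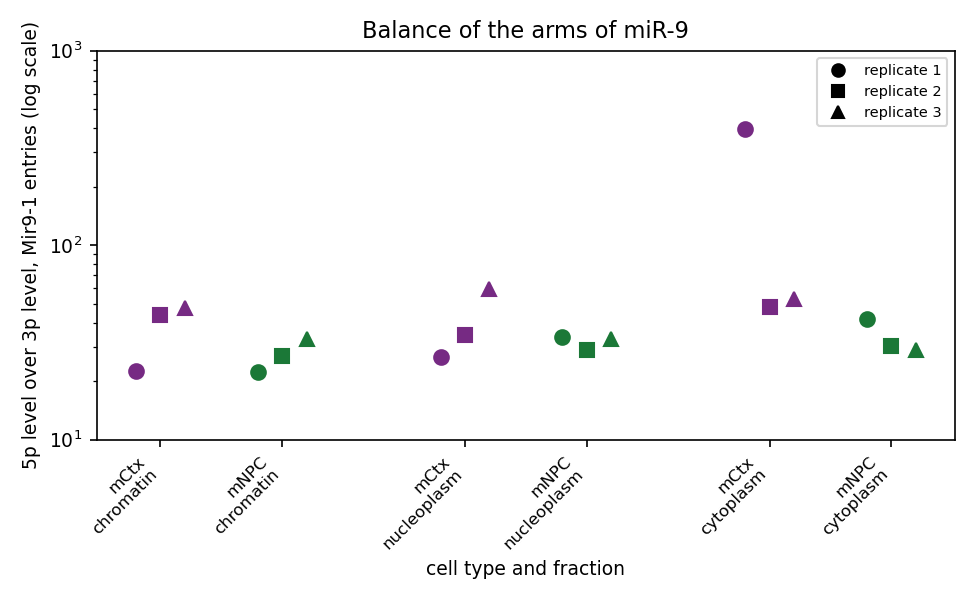
Ratio of the 5p to the 3p level (log scale), from the Mir9-1 entries, in each of the 18 neural libraries by fraction, with mCtx left of mNPC. Cytoplasm replicate 1 of mCtx lies at 396, and all others lie between 22.2 and 59.5.

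Across the fractions of a cell type, the 5p arm was present in chromatin, nucleoplasm and cytoplasm of both neural cells. In mNPC it averaged 16338 ± 5166 RPM in chromatin and 28423 ± 2748 RPM in nucleoplasm, against 34261 ± 2497 RPM in cytoplasm (SD, n = 3 each). The chromatin libraries did not overlap those of either other fraction, and nucleoplasm did not overlap cytoplasm. Among the 851 entries, 23.1% were lower without overlap in chromatin than in cytoplasm of mNPC, 15.5% in chromatin than in nucleoplasm, and 12.6% in nucleoplasm than in cytoplasm. The log2(RPM + 1) difference of chromatin was -1.12 from cytoplasm and -0.84 from nucleoplasm, and neither passed in the fit of all 9 groups (SE 0.91, limma adjusted p = 0.432 and 0.716). There 38.8% of all entries passed between chromatin and cytoplasm, 27.8% between chromatin and nucleoplasm and 15.5% between nucleoplasm and cytoplasm, in either direction.

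That standard error was set by mESC chromatin, with its values of 54.24, 0 and 0 RPM. Without replicate 1 of mESC chromatin it was 0.25, and the same differences passed (limma adjusted p = 0.00137 and 0.015), where 20.7% and 12.3% of entries were called lower. In a fit of the 18 neural libraries alone, added after the values were seen, it was 0.28, and they passed with limma adjusted p of 0.00434 and 0.0278. Lower calls there covered 25.7% of the 693 entries tested in chromatin against cytoplasm of mNPC, and 16.0% in chromatin against nucleoplasm. miRNA as a whole moved with them: it made up 62.9% ± 9.14 of the listed RPM in mNPC chromatin and 94.7% ± 0.718 in nucleoplasm, against 95.4% ± 0.338 in cytoplasm. With each library scaled to its miRNA, the difference of 5p was -0.37 from cytoplasm and -0.11 from nucleoplasm, and neither passed in the neural fit (limma adjusted p = 0.423 and 1). In mCtx the 5p differences were -0.62 for chromatin and -0.40 for nucleoplasm against cytoplasm (limma adjusted p = 0.717 and 0.995), and the fractions overlapped. Without cytoplasm replicate 1 they were -0.27 and -0.046. Centring turned them to 0.98 and 0.84, neither of which passed. In mCtx 44.1% of all entries passed between chromatin and cytoplasm, 25.3% between nucleoplasm and cytoplasm and 32.1% between chromatin and nucleoplasm.

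In mESC the 5p arm was lower in chromatin than in cytoplasm and nucleoplasm (limma adjusted p of 1.46e-05 and 2.38e-05). All 3 of its entries were called lower, as were 29.5% of all entries against cytoplasm and 30.9% against nucleoplasm. The chromatin libraries listed nothing under 47.9, 45.2 and 54.8 RPM in turn, and miRNA made up 27.5% ± 2.83 of their listed RPM, against 82.7% ± 4.28 in cytoplasm.

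The 3p arm passed no contrast between fractions in the fit of all 9 groups. In mNPC the difference from cytoplasm was -0.81 in chromatin and -0.21 in nucleoplasm (SE 0.43, limma adjusted p = 0.163 and 1). Without cytoplasm replicate 1 of mCtx, the chromatin difference in mNPC, unchanged at -0.81, passed (SE 0.31, adjusted p = 0.0457, with 21.5% of entries called lower). In mCtx it was 0.85 in chromatin and 1.00 in nucleoplasm (limma adjusted p = 0.12 and 0.101), and without replicate 1 it was 0.22 and 0.36. Centring gave 2.45 and 2.23 with all libraries, which passed (limma adjusted p = 5.14e-05 and 0.000221), as did 38.9% and 36.7% of all entries in that direction. With each library scaled to its miRNA, the chromatin difference in mCtx was 1.33 and passed (limma adjusted p = 0.018), where 10.0% of the 418 miRNA entries tested were called higher. Neither centring nor this scaling was run without cytoplasm replicate 1 of mCtx. How far these passes rest on that library was not tested. In the fit of all 9 groups the contrast of chromatin and cytoplasm thus had opposite signs, though it passed in neither cell type. Apart from leaving out a library, the alternatives put it between -0.82 and -0.039 in mNPC. The test of mCtx against mNPC for that contrast gave 1.67 (SE 0.61, limma adjusted p = 0.063), where 17.3% of all entries passed. It rested in part on cytoplasm replicate 1 of mCtx, without which it was 1.03 (adjusted p = 0.143). With centring and all libraries it passed (2.49, limma adjusted p = 0.00482), where 112 of 851 entries were called higher. For the 5p arm the same test gave 0.50 (limma adjusted p = 0.93), and 0.85 without that library (adjusted p = 0.831).

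**Figure D5:**
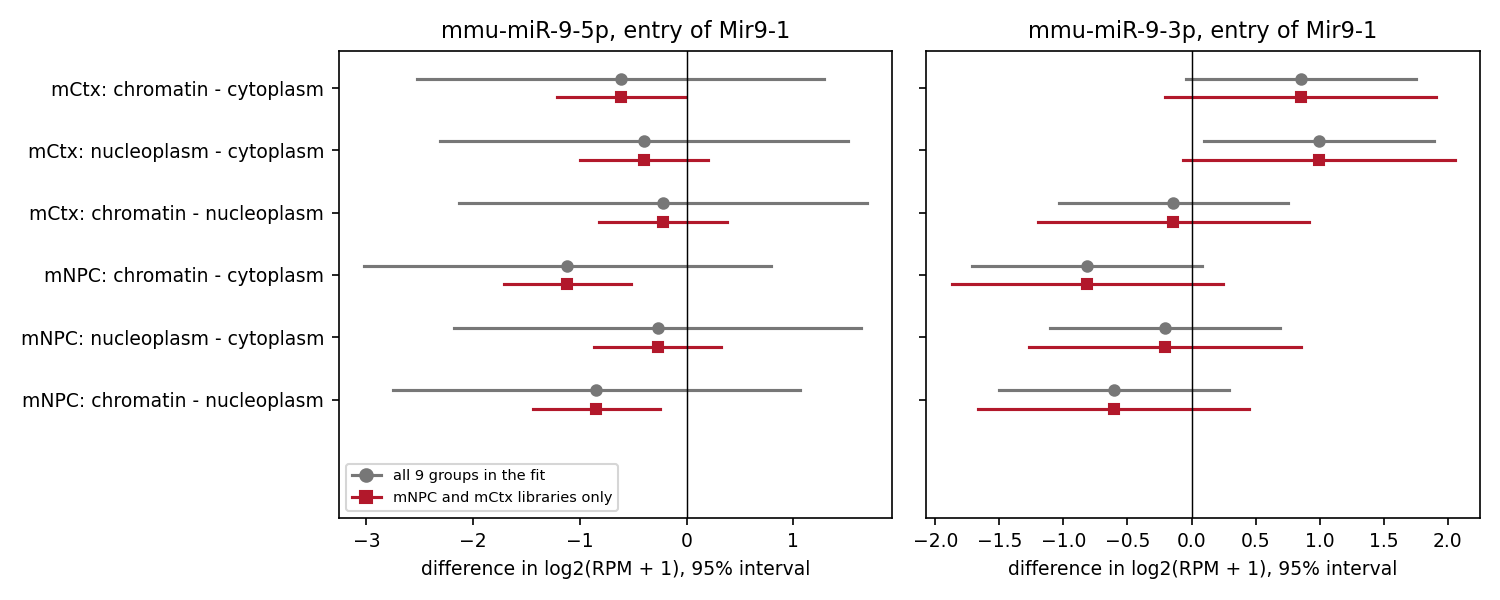
Differences between fractions in log2(RPM + 1) for both arms (Mir9-1 entries) in mCtx and mNPC, with 95% intervals from the fit of all 9 groups (grey circles) and from that of the 18 neural libraries (red squares). For 5p the estimates coincide and the intervals narrow, and chromatin of mNPC lies below 0 in the neural fit; for 3p chromatin lies below cytoplasm in mNPC and above it in mCtx, with intervals that include 0.

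The labels of the cells were set against lists of miRNAs known from each cell type. Stem cell miRNAs, such as miR-295 and miR-293, summed to 0 RPM in all 9 mCtx and all 9 mNPC libraries, against 19861 to 93945 RPM in mESC. Of their 15 tested entries, 9 fell in chromatin, 14 in nucleoplasm and 14 in cytoplasm of mNPC against mESC, as did 29.0%, 35.8% and 27.5% of all entries. These entries met the filter of the fit through mESC alone and could only be called lower. Their calls therefore show only listed against not listed. Neuron-enriched miRNAs, such as miR-128 and miR-132, summed to 17546 to 50096 RPM in mCtx and 354 to 1680 RPM in mNPC, against 52.0 to 977 RPM in mESC. Of their 23 tested entries, 15 rose in chromatin, 19 in nucleoplasm and 20 in cytoplasm of mCtx against mNPC, and 0 fell, beside 16.0%, 23.5% and 21.5% of all entries that rose. Their median log2 difference in cytoplasm was 5.28, against 0 over all entries. miR-128-3p on chromosome 9, the most abundant of them, averaged 16093 ± 4967 RPM in mCtx and 377 ± 9.07 RPM in mNPC nucleoplasm (SD, n = 3 each), where the 5p arm of miR-9 did not pass. Neural progenitor miRNAs summed to 21753 to 46836 RPM in mCtx cytoplasm and 25245 to 27819 RPM in mNPC cytoplasm, and the ranges overlapped. Of their 13 entries, 6 fell and 0 rose in cytoplasm of mCtx against mNPC (10.8% of all entries fell), with a median of -1.12. Abundant members differed in direction: miR-25-3p averaged 4204 ± 1635 RPM in mCtx and 8739 ± 997 RPM in mNPC cytoplasm. miR-125b-5p on chromosome 9 averaged 13365 ± 6832 RPM in mCtx and 2785 ± 131 RPM in mNPC cytoplasm (SD, n = 3 each).

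Markers of other cells were unevenly spread. The 3 glial entries (miR-219, miR-338) summed to 50.2 to 101 RPM in mCtx and 0 to 288 RPM in mNPC, and to 0 in mESC. The 4 entries of microglia and blood summed to 0 to 60.5 RPM in mCtx and 87.7 to 127 RPM in mNPC, against 407 to 3914 RPM in mESC, where miR-150-5p was the highest. The 9 entries of endothelium and mesenchyme summed to 2192 to 4158 RPM in mCtx and 112 to 345 RPM in mNPC, against 949 to 7629 RPM in mESC. Their part in the miR-9 differences was not tested.

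Over the 27 libraries, the entries outside miR-9 whose log2(RPM + 1) was most like that of the summed 5p entries, among 556 compared, included 4 of the let-7 family, miRNAs known to rise as stem cells differentiate. Pearson's r was 0.995 for let-7a-5p on chromosome 9, 0.965 for let-7a-5p on chromosome 13, 0.962 for miR-107-3p, 0.952 for let-7f-5p on chromosome X, 0.951 for miR-30d-5p and 0.950 for let-7f-5p on chromosome 13. The libraries share cells and fractions, and the gap between mESC and neural cells set most of these values. Over the 18 neural libraries alone, r was between 0.471 and 0.556 for the same 6 entries. The let-7a-5p entry on chromosome 9 averaged 4727 ± 316 RPM in mCtx and 6273 ± 1067 RPM in mNPC, against 126 ± 27.7 RPM in mESC nucleoplasm (SD, n = 3 each). The 3p arm of miR-9 itself had an r of 0.879 with the summed 5p entries over the 27 libraries and of 0.0592 over the 18 neural ones. Cytoplasm replicate 1 of mCtx, among these 18, had their highest 5p value (46449 RPM) and their lowest 3p value (117.4 RPM). No r was computed without it, so the value of 0.0592 does not show whether the arms followed each other in the other neural libraries.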

How the data were processed

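Small RNA shorter than 200 nt was sequenced after removal of rRNA, from libraries sized 120 to 160 bp, as single 100 bp MiSeq reads, per the labels' protocols. The authors deposited RPM values, 1 per entry and library. No aligner, genome build or rule for reads with several matches is named in the labels or the file, and 389 of 453 mature entries matched RefSeq names and positions on GRCm38.p6. The labels speak of biological replicates without naming separate cultures. The p-values therefore cover differences among these libraries, some of which may be technical.

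From the deposited RPM, limma 3.58.1 (R 4.3.3) was fitted to log2(RPM + 1) of 851 entries, those that reached 1 RPM in 3 libraries or more, with 9 group means, an intensity trend and robust variances. This scale slightly understates fold changes between low listed values. A 0 enters it as 1 RPM, so differences from groups with zeros depend on that choice and can be too large. In mESC, the 5p difference of chromatin from cytoplasm was -5.82. Apart from leaving out a library, the alternatives put it between -6.86 and -1.86. P-values were adjusted by Benjamini-Hochberg within each contrast, with a threshold of 0.05. Shares were compared by exact two-sided permutation tests over libraries, with SciPy 1.17.1 and Python 3.11.15, within strata of fraction or cell type. On simulated data with 50 changed entries per size, the cytoplasm contrast of mCtx and mNPC recovered 15, 25, 27 and 34 for log2 changes of 1, 2, 3 and 4, with 4 false calls among 651 entries. Read depth was not recovered, so no counting interval is given.

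The members and lists were chosen with earlier results of these data known. Named beside miR-9 were the 6 most similar entries among those above 0 in at least 9 libraries, and up to 4 entries per list by mean RPM. Alternatives were another pseudocount (10), a common floor, no or a stricter filter, scaling to miRNA, centring, fits of fewer groups, replicate blocks and leaving out each library.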

Additional observations from a re-analysis of the deposited data

How the results depend on the processing

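The calls of miR-9 against mESC, and the lower 3p arm in mCtx cytoplasm against mNPC (Mir9-1 entry), held under every alternative run. Those of the 3p arm against mESC set listed values against 0 alone. Over 52 results that answer a comparison, 2235 alternative values kept direction and side of the threshold, 67 came past it, 30 changed sign and 0 fell short of it. Only results that had passed in the first place could fall short, and many of the 52 had not. The 52 include the tests of arm balance between fractions, which could not pass, so their side of the threshold was fixed in advance. Groups that hold only zeros or values near the lowest listed one (mESC chromatin) limit the 5p comparisons, through the spread they share with all groups. For the 3p arm the mESC groups, all at 0, lower that shared spread instead.

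Fewer groups or another floor mattered for the 5p arm of mNPC. The chromatin difference from cytoplasm of -1.12 passed with zeros set to a common floor (limma adjusted p = 0.0012), with the 2 groups alone (0.0124), and with the neural libraries alone (0.00434, and 0.005 with a replicate block). The difference from nucleoplasm of -0.84 passed in the same settings (0.0126, 0.0444, 0.0278 and 0.0288). The 5p difference of mCtx and mNPC in nucleoplasm, -0.38, passed with 2 groups alone (0.0336). The 3p entry of Mir9-2 in cytoplasm, -1.81, passed with a floor or with 2 groups alone.

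Centring each library on the median of the 106 entries above 0 in all libraries moved the median of all entries by up to 1.60 (chromatin against cytoplasm of mCtx). Other entries are to be read against that. It gave 5p differences of 0.024 for mCtx against mNPC in nucleoplasm and, in mCtx, of 0.98 for chromatin and 0.84 for nucleoplasm against cytoplasm and 0.15 for chromatin against nucleoplasm. For the 3p arm it gave 2.45 and 2.23 against cytoplasm in mCtx, which passed, and 0.22 for chromatin against nucleoplasm there and 0.18 in mNPC. The tests of mCtx against mNPC gave 2.49 for chromatin and 2.45 for nucleoplasm against cytoplasm (3p), which passed (limma adjusted p = 0.00482 and 0.00572), and 1.12 for nucleoplasm (5p). Scaling to miRNA gave 0.33 (5p) and 0.41 (3p) for chromatin against nucleoplasm in mCtx, 0.13 (3p) in mNPC, and 1.33 (3p) for chromatin against cytoplasm in mCtx, in the fits of all and of neural libraries. The 3p test of mCtx against mNPC for chromatin and cytoplasm passed with a pseudocount of 10 (1.63) and a floor (1.67). The share of miR-9 in all listed RPM differed by -1.20 points between chromatin and nucleoplasm. The 5p percentage from the Mir9-1 entries differed by -0.158 between them in mCtx.

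Leaving out 1 library gave these ranges where a call or sign changed. For the 5p arm they were -0.0043 to 0.47 and -0.61 to -0.058 (mCtx against mNPC, chromatin and cytoplasm), -1.34 to -0.87 and -1.07 to -0.60 (chromatin of mNPC against cytoplasm and nucleoplasm), -0.82 to -0.27 (chromatin against cytoplasm of mCtx), -0.25 to 0.0095 (nucleoplasm against cytoplasm of mESC) and -0.33 to 0.23 (test of mCtx against mNPC, nucleoplasm). For the 3p arm they were -0.56 to 0.19 (mCtx against mNPC, chromatin), -1.18 to -0.43 (chromatin against cytoplasm of mNPC), 0.22 to 1.23, 0.36 to 1.38 and -0.47 to 0.041 (chromatin and nucleoplasm against cytoplasm and chromatin against nucleoplasm, mCtx) and 1.03 to 2.05 (test of mCtx against mNPC, chromatin). The 5p percentage gave 0.871 to 1.31 (mCtx against mNPC), -0.322 to 0.977 (chromatin against nucleoplasm, mCtx) and -0.386 to 0.0438 (nucleoplasm against cytoplasm, mNPC), and the miR-9 share -2.22 to -0.818 (nucleoplasm against cytoplasm). Without cytoplasm replicate 1 of mCtx and without mESC, the 5p difference from mNPC in cytoplasm was -0.61 (limma adjusted p = 0.0495).

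Replicate numbers paired the libraries weakly at most. Between cell types, deviations of same-numbered libraries had a Pearson's r of -0.0757 to 0.0956. Between fractions it was -0.12 to 0.187, over 0.1 in 8 of 27 pairs. The cell types differed here. Same-numbered fractions of mNPC all had a positive r (0.000376 to 0.184), and for mESC the lowest was -0.00346 and the highest 0.187. Only mCtx went clearly below 0, with r from -0.12 up to 0.179. Whether same-numbered fractions came from the same culture was not tested. With a replicate block, the 3p difference in cytoplasm of mCtx and mNPC stayed -1.85 (limma adjusted p = 0.00237), and no call of the fit of 9 groups changed. Counts of all entries called moved by over 1.5 times in 17 contrasts with miRNA scaling (23 to 270 of 418 tested), in 13 with a stricter filter (32 to 295 of 443), in 9 with both miRNA scaling and neural libraries (19 to 122 of 354), in 3 with a floor (76 to 184), in 2 with centring (231 and 353) and in 2 with 2 groups alone (104 and 133), against 81 to 463 otherwise. Centring moved the share of higher among called entries by over 10 percentage points in 14 of 21 contrasts and miRNA scaling in 12. With centring, 160 entries were higher and 201 lower in cytoplasm of mCtx against mNPC, beside 183 and 92 without it. For chromatin against cytoplasm it gave 331 higher and 89 lower in mCtx, 192 and 87 in mNPC and 273 and 174 in mESC, beside 172 and 203, 164 and 166, and 212 and 251 without it.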
